A study of Mus musculus with 6 samples.

Results

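Immunoglobulin genes and the joining chain gene Jchain were examined in livers of 2 mouse substrains, Balb/c and Balb/cBy, after a high-fat diet. The members are the probe sets of the array whose annotated symbol belongs to an immunoglobulin heavy, kappa or lambda gene or to Jchain. There were 35 of them among 41345 probe sets, carrying 24 of the 23981 gene symbols on the array. Of the 35, 30 carried 1 symbol and 5 carried several. By symbol, 9 of the 30 stood for heavy chain constant regions (Ighm and Ighg3) and 3 for heavy variable segments. A further 16 stood for kappa segments, 1 for a lambda segment and 1 for Jchain. The part of a locus that each probe set reads is not given. No member carried the symbol Igha, Igkc or Iglc, or that of any heavy constant gene besides Ighm and Ighg3. IgA, the other antibody classes besides IgM and IgG3, and the light chain constant regions are therefore not described.

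The study placed 3 male mice in each group, with 1 liver array per mouse. In the labels Balb/c stands as WT and its near relative Balb/cBy as KD, with no gene named for that term. In both groups fat supplied 58% of the energy of the diet for 12 weeks, started at 8 weeks of age, and the mice were 20 weeks old, so no group on another diet is compared. Replicates are labelled as biological, 1 animal each.

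An antibody is built from paired heavy and light chains. In each B cell the variable part of a chain is put together from 1 V segment and short joining segments, with a further D segment in the heavy chain, and then joined to a constant region, so a transcript carries few of the many V segments in the genome. Heavy constant regions set the class, with Ighm coding for IgM and Ighg3 for IgG3, and the joining chain links IgM and IgA units into polymers that can be carried across epithelia. Plasma cells secrete most antibody. In the liver these transcripts are taken to come from B lineage cells among the other cells of the tissue, not from hepatocytes. Their source was not tested here.

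The arrays were alike in general signal. Over all probe sets the Pearson correlation between arrays was 0.973 to 0.988 within groups and 0.972 to 0.988 between them. The hepatocyte gene Alb, which codes for albumin, was bright, at log2 levels of 14.2 on all 6 arrays. Acads, a fatty acid oxidation gene known to be mutated in the Balb/cBy substrain, read 11.53, 11.46 and 11.28 in Balb/c and 10.60, 10.79 and 10.93 in Balb/cBy, with a limma adjusted p of 0.582. Since the position of its probes relative to that mutation is not given, this level does not check the labels. Limma gave Balb/cBy replicate 1 (0.554) and Balb/c replicate 3 (0.632) the least weight of the arrays.

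The kappa, lambda and joining chain probe sets had higher means in Balb/cBy than in Balb/c livers. Those with the symbol Ighm were divided, and no single probe set passed the test described next. The members were chosen with earlier results of these data known, so their counts and medians are a description. Of the 35 probe sets, 33 had the higher mean in Balb/cBy and 2 the lower, against 48.9% higher over every probe set of the table. The median difference was 0.74 on the log2 scale (Balb/cBy minus Balb/c), and the median over every probe set was -0.0035. A difference of at least 1, which is a doubling, was seen for 13 members, where 0.288% of all probe sets reached it. The groups did not overlap, with every Balb/cBy array above every Balb/c array, for 20 members, against 4.35% of all probe sets, and 0 members were separated in the lower direction, against 3.57%.

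No single member passed the test over the whole table. Limma, a linear model with shared variance estimates, called 0 of the 35 at a Benjamini-Hochberg adjusted p of 0.05, and 0% of all probe sets. The smallest adjusted p of a member was 0.499, which is also the smallest in the table. At an unadjusted limma p under 0.05 there were 22 members higher and 0 lower, against 2.38% and 1.26% of all probe sets. The members are not independent of one another: several carry the same symbol, V segments resemble each other in sequence, and 1 transcript can be read by more than 1 probe set.

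**Figure D1:**
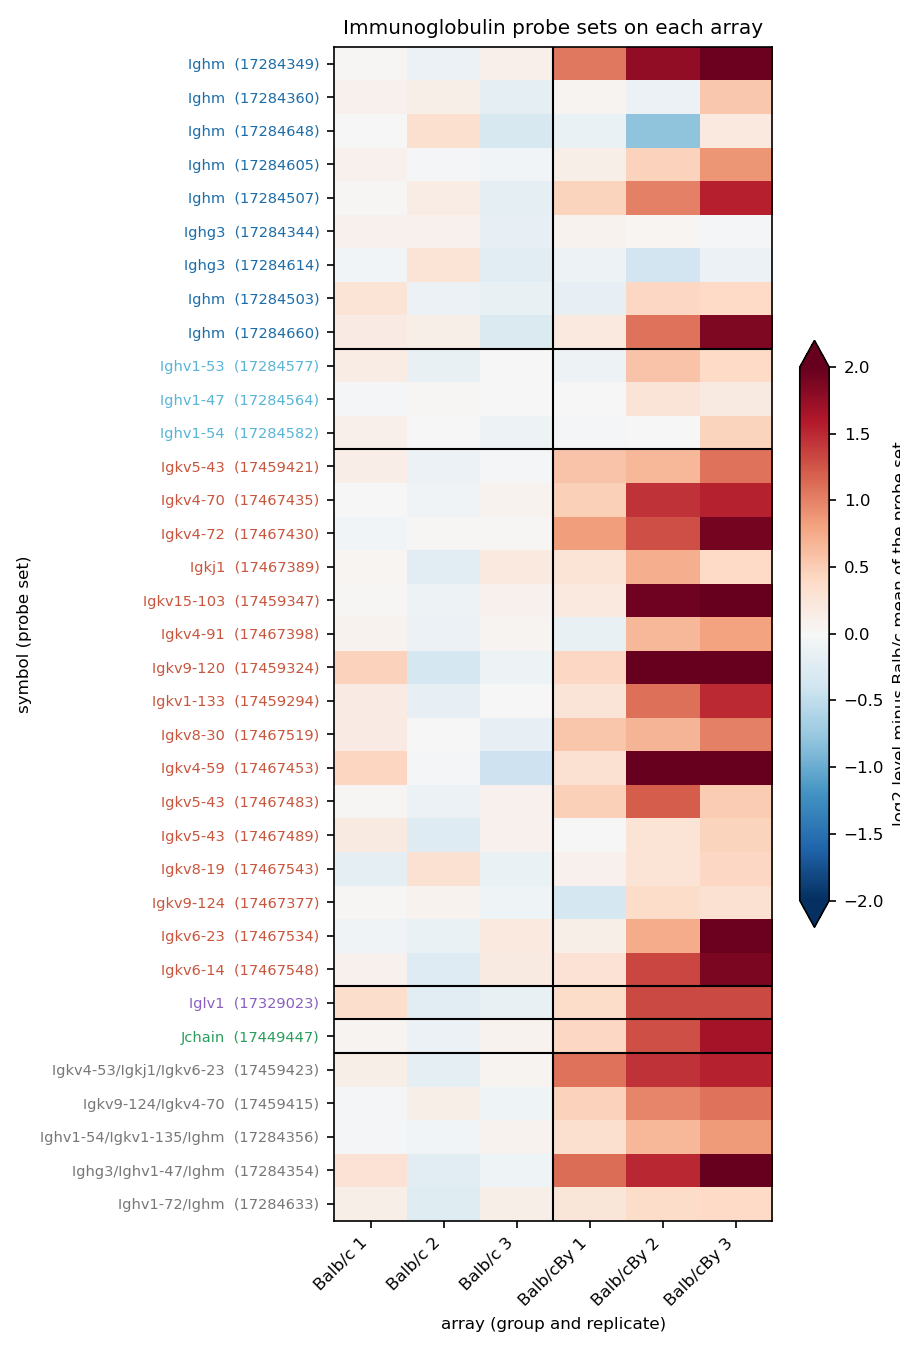
Log2 level of each of the 35 probe sets (rows, by symbol and probe set) on the 6 arrays (columns), minus the mean of the 3 Balb/c arrays of that row; the colour scale ends at -2 and 2 and values beyond take the end colour. Most rows of kappa segments and those of Iglv1 and Jchain are red on Balb/cBy replicates 2 and 3 and paler on replicate 1, while the Ighg3 rows stay pale on every array.

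Of the probe sets with heavy constant symbols, those of Ighm split. Those of Ighg3 differed by 0.02 and -0.21, with overlapping groups. Ighm was carried by 7 probe sets of 1 symbol. Of these, 6 had the higher mean in Balb/cBy, against 48.9% of all probe sets. Higher without overlap were 4, against 4.35% of all probe sets. The largest difference belonged to the brightest, 17284349, which read 9.54, 9.40 and 9.63 in Balb/c and 10.58, 11.29 and 11.47 in Balb/cBy. Its lowest Balb/cBy array thus lay well above its highest Balb/c array. The difference was 1.59 ± 0.23 (SE, 95% interval 1.06 to 2.13), or 3.02-fold. It ranked 14 of 41345 by p, with an unadjusted limma p of 0.000212 and an adjusted p of 0.499.

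Another Ighm probe set, 17284507, read 7.47, 7.60 and 7.27 in Balb/c and 7.89, 8.45 and 9.01 in Balb/cBy. The groups were apart, with a difference of 1.003 ± 0.27 (SE). Probe set 17284660, which is dim, differed by 1.05 ± 0.39 (SE), or by 0.64 without Balb/cBy replicate 3, and its Balb/cBy replicate 1, at 4.85, was hardly above the highest Balb/c array, at 4.82. In 17284605 the difference was 0.49 ± 0.19 (SE), or 0.29 without Balb/cBy replicate 3, and here too Balb/cBy replicate 1 (8.77) lay just over Balb/c replicate 1 (8.74).

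The remaining 3 Ighm probe sets did not separate the groups. Probe set 17284360, nearly as bright as the first, read 10.01, 10.04 and 9.74 in Balb/c and 9.98, 9.81 and 10.47 in Balb/cBy. The groups overlapped in part, and the difference was 0.16 ± 0.19 (SE). Probe set 17284648 went the other way, with 9.59, 9.90 and 9.25 in Balb/c and 9.45, 8.78 and 9.77 in Balb/cBy, a difference of -0.24 ± 0.28 (SE). Its lowest value was that of Balb/cBy replicate 2, an array on which most other members were high. The dim 17284503 differed by 0.22 ± 0.19 (SE), from 0.12 without Balb/cBy replicate 2 to 0.41 without Balb/cBy replicate 1. The probe sets that share the symbol Ighm therefore disagreed, from -0.24 to 1.59, and the part of the locus that each one reads is not given.

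Ighg3, the constant region of IgG3, was the symbol of a pair of probe sets, both under the background stand-in of 8.01. That value is the 95th percentile of the mean log2 levels of 1108 olfactory receptor probe sets, genes with little part in liver, and was used because the table holds no detection measure. Probe set 17284344 read 7.68, 7.69 and 7.44 in Balb/c and 7.67, 7.64 and 7.56 in Balb/cBy, a difference of 0.02 ± 0.11 (SE, 95% interval -0.23 to 0.27). RMA can draw dim values together, so that differences at this level may look smaller, which was not tested here. Probe set 17284614 differed by -0.21 ± 0.15 (SE), or by -0.070 without Balb/c replicate 2. Over the 9 probe sets with heavy constant symbols the median difference was 0.22. It ran from 0.13 without Balb/cBy replicate 3 to 0.41 without Balb/cBy replicate 1.

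**Figure D2:**
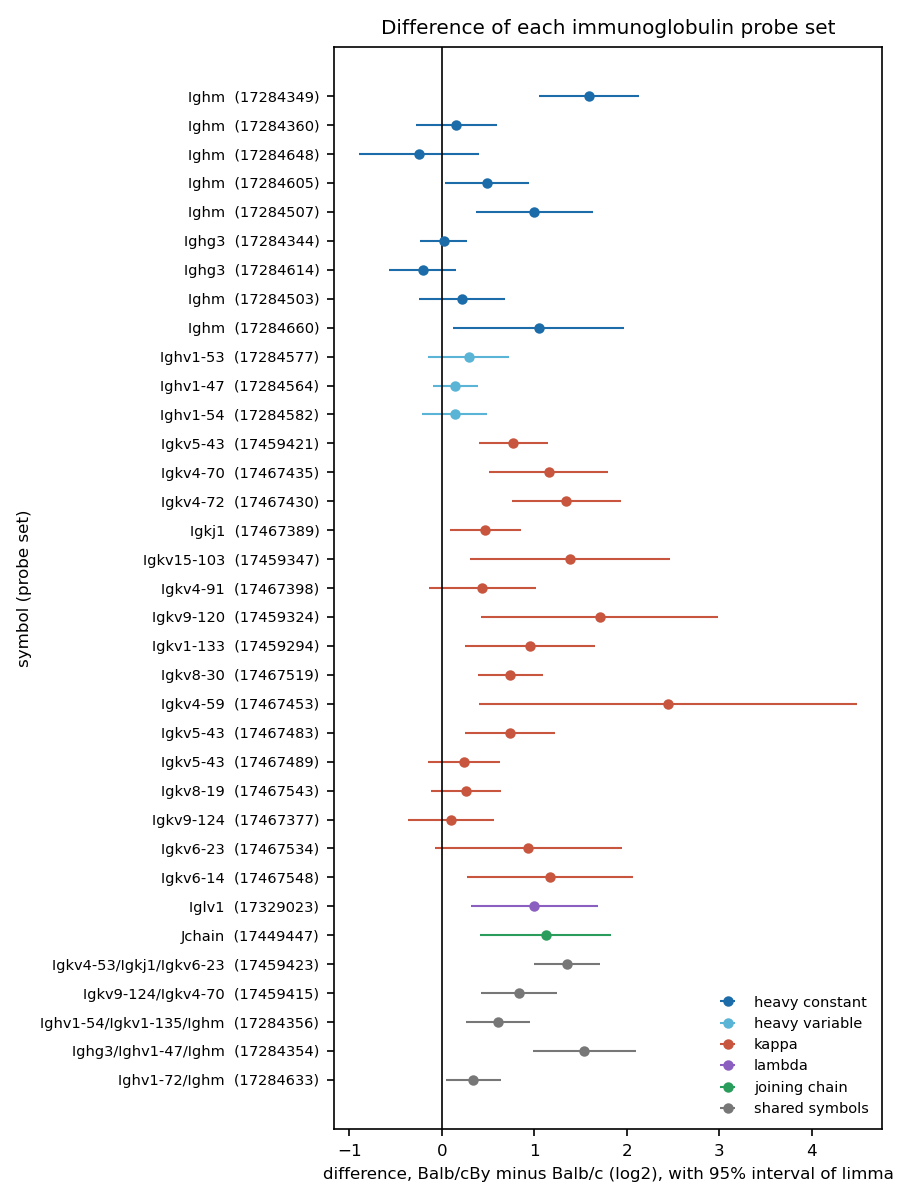
Difference between the groups (Balb/cBy minus Balb/c, log2; points) with its 95% interval from limma (bars) for each of the 35 probe sets, coloured by group. The intervals of Ighm 17284349 and of the probe set of Igkv4-53, Igkj1 and Igkv6-23 lie near or above 1, whereas those of Ighg3 and of the heavy variable segments span 0.

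The heavy variable segments gave little. All 3, Ighv1-53, Ighv1-47 and Ighv1-54, lay under 8.01, with means over the 6 arrays of 7.14, 4.50 and 3.94. Ighv1-53 read 7.14, 6.84 and 6.9997 in Balb/c and 6.90, 7.56 and 7.40 in Balb/cBy, with a difference of 0.29 ± 0.18 (SE) and overlapping groups. The difference was 0.15 without Balb/cBy replicate 2 and 0.49 without Balb/cBy replicate 1. Ighv1-47 differed by 0.15 ± 0.10 (SE), or by 0.089 without Balb/cBy replicate 2, and Ighv1-54 by 0.14 ± 0.15 (SE). In each of the 3, Balb/cBy replicate 1 fell inside the range of the Balb/c arrays.

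Kappa light chain segments were higher in Balb/cBy in all 16 probe sets, with a median difference of 0.86 and a range of 0.10 to 2.44. Of these, 9 did not overlap between the groups, against 4.35% of all probe sets, and 11 had an unadjusted limma p under 0.05, against 2.38%. None (0 of 16) had an adjusted p under 0.05. These genes supply the V segments of the kappa chain, the light chain of most mouse antibodies. The brightest was Igkv5-43 (17459421), at 10.59, 10.34 and 10.42 in Balb/c and 11.02, 11.11 and 11.54 in Balb/cBy. Every Balb/cBy array exceeded every Balb/c array, and the difference was 0.78 ± 0.16 (SE), 1.71 times the Balb/c level. The adjusted p of limma was 0.650.

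Igkv4-72 had the smallest p of the kappa probe sets of 1 symbol. It read 7.58, 7.65 and 7.66 in Balb/c and 8.47, 8.92 and 9.53 in Balb/cBy. The Balb/c arrays lay within 0.08 of each other and the Balb/cBy arrays spread over more than 1, with no overlap. The difference was 1.35 ± 0.25 (SE, 95% interval 0.76 to 1.93), at an unadjusted limma p of 0.000997 and an adjusted p of 0.557. All its Balb/c arrays lay under the background stand-in of 8.01 and all its Balb/cBy arrays over it, so no fold is given. Igkv4-70 (17467435) read 8.56, 8.49 and 8.62 in Balb/c and 9.04, 10.00 and 10.10 in Balb/cBy, a difference of 1.16 ± 0.27 (SE). Igkv8-30, which lay under 8.01 on all arrays, read 6.34, 6.17 and 6.02 against 6.73, 6.85 and 7.18, a difference of 0.74 ± 0.15 (SE) without overlap.

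A further 3 kappa segments, Igkv4-59, Igkv9-120 and Igkv15-103, spread widely among the Balb/cBy mice. All their Balb/c arrays lay under 8.01, as did Balb/cBy replicate 1, so the sizes of their differences are not ranked against those of brighter probe sets. Igkv4-59 read 5.53, 5.08 and 4.67 in Balb/c and 5.40, 9.12 and 8.10 in Balb/cBy. Balb/cBy replicate 1 lay within the Balb/c range while replicates 2 and 3 were far above it. The difference was 2.44 ± 0.87 (SE, 95% interval 0.40 to 4.49), with an SD of 1.92 in Balb/cBy against 0.43 in Balb/c. Igkv9-120 showed the same layout, at 6.76, 5.94 and 6.19 in Balb/c and 6.71, 8.42 and 8.89 in Balb/cBy, a difference of 1.71 ± 0.54 (SE). Igkv15-103 read 7.24, 7.11 and 7.30 against 7.42, 9.16 and 9.22, a difference of 1.38 ± 0.46 (SE).

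The replicates that led were not the same for every segment. Igkv4-59 and the Igkv5-43 probe set 17467483 were highest on Balb/cBy replicate 2 (9.12 and 7.11). Igkv6-23 and Igkv6-14 were highest on replicate 3 (6.96 and 6.60, against 5.74 and 6.04 on replicate 2). The Igkv5-43 probe sets 17459421 and 17467489 were also highest on replicate 3 (11.54 and 6.50, against 11.11 and 6.32), so probe sets of that symbol differed in this. Igkv6-23 differed by 0.94 ± 0.43 (SE) with overlapping groups, or by 0.42 without Balb/cBy replicate 3, and Igkv6-14 by 1.17 ± 0.38 (SE) without overlap. Igkv1-133 differed by 0.96 ± 0.30 (SE) and did not overlap.

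The other kappa probe sets differed less. Igkj1, a joining segment of the kappa locus, read 7.81, 7.54 and 7.97 in Balb/c and 8.05, 8.51 and 8.18 in Balb/cBy, a difference of 0.47 ± 0.16 (SE). Igkv4-91 differed by 0.44 ± 0.25 (SE), Igkv8-19 by 0.26 ± 0.16 (SE) and Igkv9-124 by 0.10 ± 0.20 (SE), each with overlapping groups. The value for Igkv4-91 was 0.26 without Balb/cBy replicate 3 and 0.73 without Balb/cBy replicate 1, and that for Igkv8-19 ran from 0.17 without Balb/c replicate 1 to 0.41 without Balb/c replicate 2. Igkv5-43 was read by 3 probe sets that did not give 1 answer: beside the bright one, 17467483 differed by 0.74 ± 0.21 (SE) without overlap and 17467489 by 0.24 ± 0.17 (SE) with overlap, or by 0.11 without Balb/c replicate 2.

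**Figure D3:**
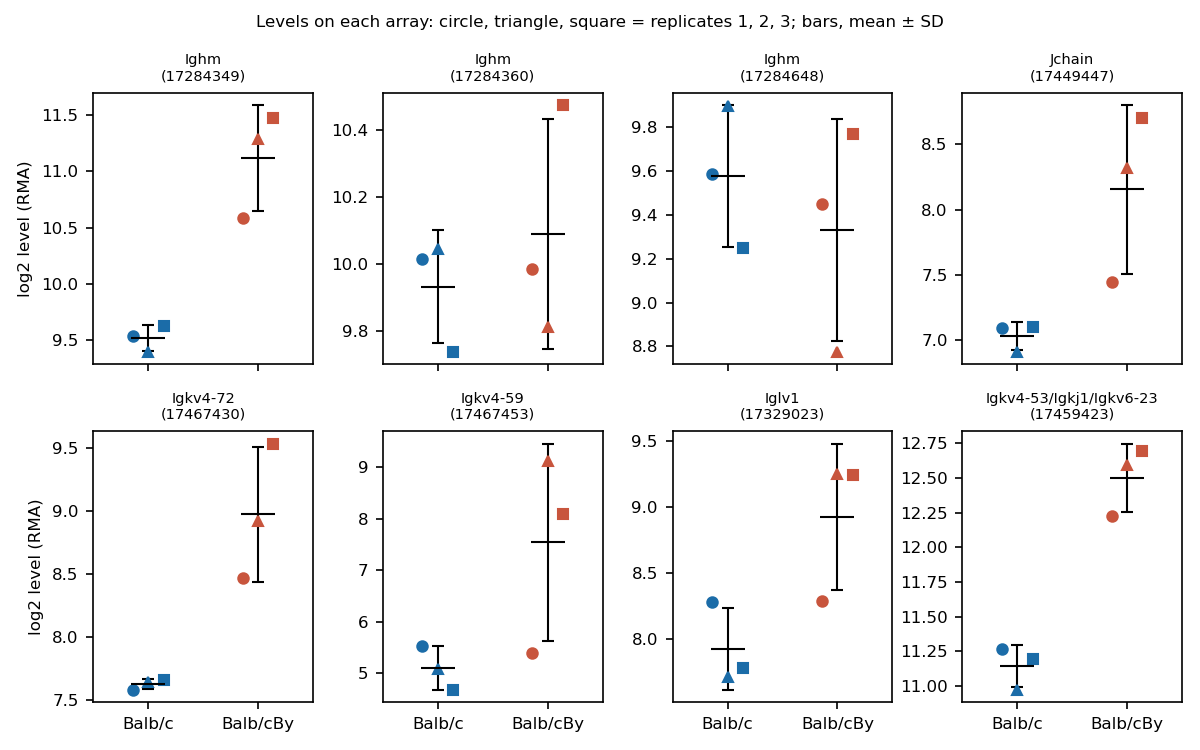
Log2 RMA level on each array for 8 probe sets, with circles, triangles and squares for replicates 1, 2 and 3 and bars for the mean ± SD of each group (n = 3); each panel has its own vertical axis. The Balb/c arrays of Igkv4-72 and Jchain lie close together, and Balb/cBy replicate 1 is the lowest Balb/cBy array in 6 of the 8 panels, all but Ighm 17284360 and Ighm 17284648.

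Lambda light chains were represented by Iglv1 alone. It read 8.28, 7.71 and 7.78 in Balb/c and 8.29, 9.25 and 9.24 in Balb/cBy. Balb/cBy replicate 1 was level with Balb/c replicate 1, so the groups were separated by a hair, and the other Balb/cBy arrays stood well above. The difference was 1.001 ± 0.29 (SE, 95% interval 0.32 to 1.69), with an adjusted p of 0.999 in limma.

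Jchain encodes the joining chain, which plasma cells and some B cells make whatever class of antibody they secrete. Its probe set, 17449447, read 7.09, 6.91 and 7.10 in Balb/c and 7.44, 8.31 and 8.70 in Balb/cBy. All Balb/cBy arrays were above all Balb/c arrays, and the order among them, with replicate 1 lowest and replicate 3 highest, was that of Igkv4-72 and of Ighm 17284349. The difference was 1.12 ± 0.30 (SE, 95% interval 0.42 to 1.83), with an unadjusted limma p of 0.00701 and an adjusted p of 0.999. The mean of Balb/c, 7.03 ± 0.11 (SD, n = 3), lay under the background stand-in of 8.01, and that of Balb/cBy, 8.15 ± 0.65 (SD, n = 3), just over it. Without Balb/cBy replicate 1 the difference was 1.48 and without Balb/cBy replicate 3 it was 0.85.

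Jchain was the single member of the 24 symbols with a promoter window in the RefSeq table (GRCm38.p6), and it is printed because this gene sits outside the antibody loci and was higher along with them. The window is the 250 bases before the start of transcription, chr5:88527898-88528147 on the minus strand, with the letters CANNTG, the core of E-boxes bound by E proteins of lymphocytes, in capitals.
Jchain: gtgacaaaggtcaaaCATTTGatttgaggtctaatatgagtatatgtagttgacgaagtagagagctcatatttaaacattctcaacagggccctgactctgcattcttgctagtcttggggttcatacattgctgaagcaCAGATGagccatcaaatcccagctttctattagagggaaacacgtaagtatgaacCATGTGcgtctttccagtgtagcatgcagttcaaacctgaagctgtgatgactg
CANNTG occurs 3 times, starting 235, 109 and 54 bases before the start, and 66.2% of 32851 promoter windows of this length hold at least 1. The octamer ATGCAAAT, the element known from the promoters of variable segments, was searched on both strands and is not in this window, and 1.60% of all windows hold it. The letters TATAAA are not in it either on either strand, against 12.4% of all windows.

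The 5 probe sets with several symbols were all higher in Balb/cBy, against 48.9% of all probe sets. All were without overlap, against 4.35% of all probe sets. Each may read more than 1 of the genes it names. The brightest member of all, 17459423 (Igkv4-53, Igkj1 and Igkv6-23), read 11.26, 10.97 and 11.20 in Balb/c and 12.22, 12.59 and 12.69 in Balb/cBy. The gap between the groups was about as wide as 1 doubling, and the spread within each was small. Its difference was 1.36 ± 0.15 (SE, 95% interval 0.9999 to 1.71), 2.56 times the Balb/c level, and it ranked 3 of 41345 by p, with an unadjusted limma p of 4.37e-05 and an adjusted p of 0.499.

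Probe set 17284354 (Ighg3, Ighv1-47 and Ighm) read 9.04, 8.55 and 8.67 in Balb/c and 9.87, 10.26 and 10.74 in Balb/cBy. With a difference of 1.54 ± 0.24 (SE) it followed Ighm 17284349 more closely than the Ighg3 and Ighv1-47 probe sets of 1 symbol, at 0.02, -0.21 and 0.15. Probe set 17459415 (Igkv9-124 and Igkv4-70) differed by 0.84 ± 0.17 (SE), 17284356 (Ighv1-54, Igkv1-135 and Ighm) by 0.61 ± 0.15 (SE), and 17284633 (Ighv1-72 and Ighm) by 0.34 ± 0.13 (SE), or by 0.22 without Balb/c replicate 2. In the last of these the Balb/cBy arrays lay within 0.15 of each other.

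The members varied more between the Balb/cBy mice than between the Balb/c mice. The median SD within a group was 0.16 in Balb/c and 0.40 in Balb/cBy, while over every probe set it was 0.14 and 0.15. The SD was larger in Balb/cBy for 31 of 35 members, against 53.0% of all probe sets. Balb/cBy replicate 1 was the lowest of its group in 31 members, against 33.5% of all probe sets. Taken per array as the median over the members of the distance from the Balb/c mean, Balb/cBy replicates 1, 2 and 3 stood at 0.26, 0.73 and 1.002, and the Balb/c arrays between -0.11 and 0.08. The same median over every probe set stayed between -0.02 and 0.02 on all arrays. The intermediate position of Balb/cBy replicate 1 is also that of the array with the lowest weight; the part of that array's quality in its values was not tested.

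Counts of members moved with the arrays used. Leaving out 1 array at a time, 31 to 33 members had the higher mean in Balb/cBy, and the median difference ran from 0.61 to 0.86. The number at an unadjusted limma p under 0.05 was 14 without Balb/cBy replicate 2 and 27 without Balb/cBy replicate 1, against 22 with all arrays. The share of all probe sets moved the same way, at 1.42% and 4.29% against 2.38%. The number with a difference of at least 1 was 7 without Balb/cBy replicate 3 and 16 without Balb/cBy replicate 1, against 13, where the shares of all probe sets were 0.288%, 0.561% and 0.288%. Without Balb/cBy replicate 1 the smallest adjusted p of a member was 0.0529, shared by Ighm 17284349 and Igkv15-103, whose differences were then 1.86 and 1.97. Igkv4-70 17467435 followed at 0.0555 in that limma fit, and 0 members passed.

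Other genes of B cells showed small differences in both directions. Of 18 B cell genes listed, 16 were measured; 6 were higher and 10 lower in Balb/cBy, with a median difference of -0.04, and 0 passed limma's adjusted p of 0.05. The mean log2 level of the list was 7.58 to 7.64 in Balb/c and 7.53 to 7.59 in Balb/cBy, and 7 of the 16 genes had a mean above 8.01. Ms4a1, the gene of CD20, read 6.24, 6.33 and 6.40 in Balb/c and 6.13, 5.99 and 6.04 in Balb/cBy, a difference of -0.27 ± 0.09 (SE). Cd79b, a signalling chain of the B cell receptor, differed by -0.27 ± 0.10 (SE). Of the 16, 3 were lower without overlap, Ms4a1, Cd79b and Cd79a (-0.17), against 3.57% of all probe sets. Higher without overlap were 2, Spib (0.24) and Blnk (0.11), against 4.35% of all probe sets. Ms4a1, Cd79a and Spib lay under 8.01 on every array. Cd79b and Blnk had means of 8.12 and 8.03. In whole liver, fewer or more cells of a type and less or more RNA per cell cannot be told apart.

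Of 17 genes of plasma cells and antibody secretion, 16 were measured, 9 were higher and 7 lower, with a median of 0.07 and 0 past the threshold. The list mean was 8.72 to 8.85 in Balb/c and 8.89 to 8.92 in Balb/cBy. Creb3l2, a transcription factor of secretory capacity, differed by 0.55 ± 0.17 (SE), and Xbp1, the factor that builds the secretory apparatus of plasma cells and also acts in hepatocytes, by 0.37 ± 0.14 (SE). A further 5 genes of the list were picked after their values were seen. Derl3, of the degradation of misfolded secretory proteins, differed by 0.43 ± 0.27 (SE) and Fkbp11, a folding enzyme of secretory cells, by 0.29 ± 0.15 (SE), both with overlapping groups. The others were Tnfrsf17, the receptor BCMA, by 0.09 ± 0.10 (SE), Mzb1, an endoplasmic reticulum protein needed for IgM secretion, by 0.06 ± 0.12 (SE), and Prdm1, the regulator Blimp-1, by -0.03 ± 0.13 (SE). The 7 lower genes of the list were Ell2 (-0.18), Irf4 (-0.13), Pou2af1 (-0.07), Tnfrsf13b (-0.07), Sdc1 (-0.05), Prdm1 and Slamf7 (-0.009). Tnfrsf17, Mzb1, Irf4, Pou2af1, Tnfrsf13b and Slamf7 lay under 8.01 and Prdm1 at it, at a mean of 8.02. Changes in that range can be understated, which was not tested here.

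**Figure D4:**
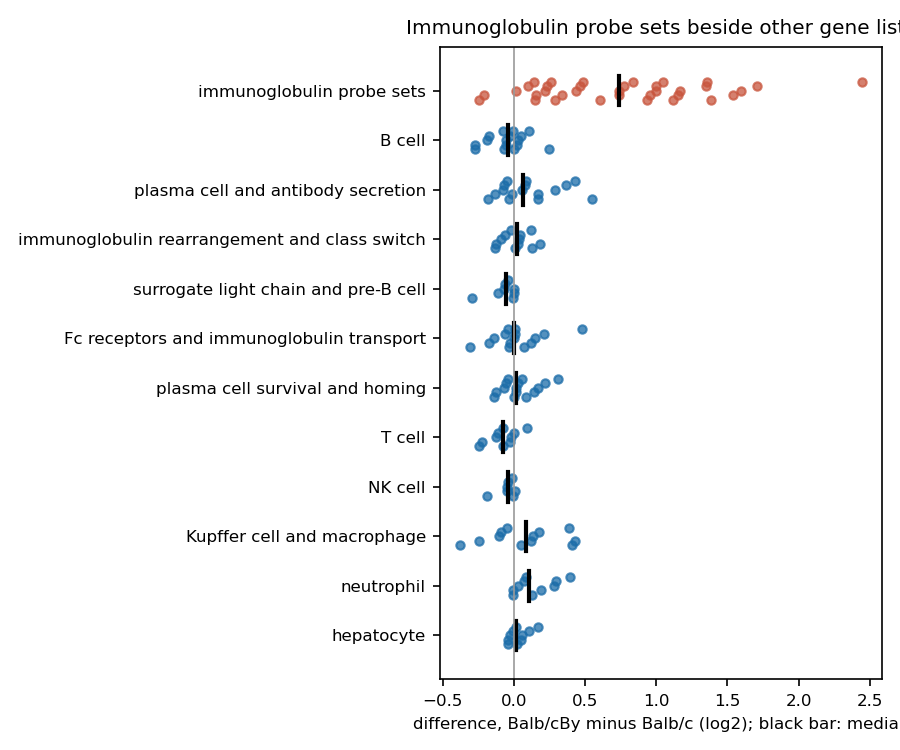
Difference between the groups (Balb/cBy minus Balb/c, log2) for the 35 immunoglobulin probe sets (red) and for the genes of 11 other lists (blue), with the median of each as a black bar; vertical offsets only keep points apart. The immunoglobulin median is 0.74, and those of the other lists lie between -0.08 and 0.11.

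Receptors and carriers of antibody and the genes that recombine or house antibody-forming cells read near 0 as lists. Of 15 Fc receptor and immunoglobulin transport genes, 8 were higher and 7 lower (median 0.0051); Fcer1g, the shared signalling chain of Fc receptors, differed by 0.48 ± 0.20 (SE), and Fcgr2b, the inhibitory IgG receptor of sinusoidal endothelium, by -0.30 ± 0.15 (SE). Pigr, which carries polymeric antibody with its joining chain into bile, was read at 11.61, 11.82 and 12.16 in Balb/c and 11.70, 11.73 and 11.97 in Balb/cBy, a difference of -0.06 ± 0.16 (SE). Of 15 measured genes of plasma cell survival and homing, 10 were higher (median 0.02), led by the chemokine Cxcl12 at 0.22 ± 0.10 (SE) and the B cell chemokine Cxcl13 at 0.31 ± 0.17 (SE). Of 12 measured genes of rearrangement and class switch, 7 were higher (median 0.02), with Trp53bp1 at 0.13 ± 0.08 and Rag2 at -0.12 ± 0.09 (SE), and of 8 genes of the surrogate light chain and pre-B cells 1 was higher (median -0.05), with Bst1 at -0.29 ± 0.17 and Flt3 at -0.11 ± 0.11 (SE). In these lists 0 genes passed limma's adjusted p of 0.05.

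Markers of other cells were read for comparison, again with 0 passing. T cell genes were higher in 2 of 10 (median -0.08), with Cd3d at -0.22 ± 0.14 and Cd4 at -0.24 ± 0.15 (SE), and NK cell genes in 1 of 7 (median -0.04), with Prf1 at -0.19 ± 0.15 and Eomes at -0.05 ± 0.11 (SE). Kupffer cell and macrophage genes were higher in 7 of 12 (median 0.09), with Vsig4 at 0.41 ± 0.17 and Lyz2 at 0.39 ± 0.21 (SE). Among the 5 lower ones were Adgre1 at -0.37 ± 0.32 and Marco at -0.24 ± 0.16 (SE). Neutrophil genes were higher in 8 of 10 (median 0.11), with Retnlg at 0.40 ± 0.12 and S100a8 at 0.29 ± 0.13 (SE), both under 8.01. Hepatocyte genes were higher in 6 of 10 (median 0.02), with Hnf4a at 0.17 ± 0.12 and Fgb at 0.11 ± 0.15 (SE).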

How the data were processed

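The deposited values are log2 levels, 1 per probe set and array, made by the authors with RMA (background correction, quantile normalization and summary of probes), per the submitters' processing notes. Its software, version and genome build are not given in the sources used here. RNA was extracted with Trizol and 500 ng per liver was labelled with the GeneChip WT PLUS kit, per the labels' protocols. Array medians over all probe sets ran from 7.66 to 7.74.

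Symbols came from the platform annotation: 23521 probe sets have 1 symbol, 1814 several, and 16010 are unlisted and unnamed here. The promoter windows came from a RefSeq table.

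Balb/cBy was compared with Balb/c over all 41345 probe sets with limma 3.58.1 in R 4.3.3, two-sided, with Benjamini-Hochberg adjustment at 0.05. The fit was run on simulated data with planted differences to check the size and direction of its estimates. The simulated noise was independent between probe sets. The number of arrays limits the precision, and 3 against 3 arrays cannot give a permutation p under 0.1. Other lists, 142 genes in 11, use the highest-mean probe set of 1 symbol per gene. Members and lists were chosen with earlier results of these data known. By rule, heavy constant, Jchain, the brightest and lowest-p variable probe sets and 2 genes per list are named. The remaining members were named to account for all 35. Named in addition were Alb, Acads, Cd79a, Spib, Blnk, Derl3, Fkbp11, Tnfrsf17, Mzb1, Prdm1, Ell2, Irf4, Pou2af1, Tnfrsf13b, Sdc1, Slamf7, Pigr, Adgre1 and Marco. Alternatives were mean trend with robust moderation, array weights, replicate block, quantile normalization, median centring, brighter probe sets, 1-symbol probe sets, 1 probe set per symbol, and leaving out each array.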

Additional observations from a re-analysis of the deposited data

How the results depend on the processing

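Under each of the 14 alternatives run, 0 members passed at 0.05 in limma and the median difference over the members stayed positive, from 0.61 to 0.94. Of all 41345 probe sets, 0 passed in the main fit and 1 passed without Balb/c replicate 3. The smallest adjusted p of a member was 0.499 with all arrays, 0.177 when probe sets of 1 symbol alone were tested, 0.144 with array weights and 0.0529, the lowest of all, without Balb/cBy replicate 1. The filter on dim probe sets left no heavy variable probe set and not Jchain. With 1 probe set per symbol the heavy constant median was 0.81 over 2 probe sets, since the brightest Ighm alone then stands for the gene. Of 449 values of single members under the alternatives, 7 changed sign. They were Ighg3 17284344 with array weights (-0.043), without Balb/c replicate 3 (-0.063) and without Balb/cBy replicate 1 (-0.0049), Ighm 17284648 (0.033) and Igkv9-124 (-0.027) without Balb/cBy replicate 2, and Ighm 17284360 (-0.034) and Ighv1-54 (-0.010) without Balb/cBy replicate 3. Over all fits that leave out 1 array, these ran from -0.063 to 0.061 for Ighg3 17284344, from -0.46 to 0.033 for Ighm 17284648, from -0.027 to 0.33 for Igkv9-124, from -0.034 to 0.30 for Ighm 17284360 and from -0.010 to 0.23 for Ighv1-54. The cause was not tested. With the replicate number as a block 0 members passed. Deviations of same-numbered arrays from their group means were weakly and negatively correlated (-0.21, -0.17 and -0.25 over all probe sets). The numbers were not taken as pairs, and whether they mark pairs cannot be told from these values. Of the members, 22 had a mean under the background stand-in of 8.01, where RMA can understate differences, which was not tested here.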
